A study of Mus musculus with 15 samples.

Results

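The genes described here are the 8 that encode the machinery of extracellular adenosine: the receptors Adora1, Adora2a, Adora2b, and Adora3, the ectonucleotidases Entpd1 (CD39) and Nt5e (CD73), and the enzymes Ada and Adk that clear adenosine. They were matched by symbol to the gene identifiers of the deposited counts and are 8 of the 19456 genes in that table, of which 15802, including all 8, passed the filter on low counts. They were selected with their levels in all 4 populations known, so levels and differences of these 8 genes are given as a description, without p-values. RNA was sequenced from wild-type adult male C57BL/6 mice, with no treatment and no altered allele in any group: 3 libraries came from Ly6Chi monocytes of peripheral blood, and 4 libraries came from each of 3 small intestine macrophage subsets, named Tim-4-CD4-, Tim-4-CD4+ or Tim-4+CD4+ after their surface proteins. Each library held sorted cells pooled from 3 mice, except monocyte replicate 2, pooled from 4 mice, so no library is a single animal. Gut tissue was digested with enzymes before sorting and blood was not, so tissue, digestion, and cell type cannot be told apart in any comparison with monocytes.

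Extracellular ATP released by stressed or dying cells is cut by CD39 to AMP, and CD73 turns AMP into adenosine. Adenosine acts on 4 G protein-coupled receptors, of which those encoded by Adora2a and Adora2b raise cAMP through Gs, whereas those encoded by Adora1 and Adora3 lower it through Gi. Macrophages are known to respond to adenosine with less inflammatory cytokine production, and the signal ends when adenosine is taken up and either deaminated to inosine by ADA or phosphorylated to AMP by ADK. In the text, CPM is a gene's read count scaled to the depth of its library (TMM scaling), and levels of different genes are compared only as CPM per kb of exon.

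Of the 8 genes, 7 had at least 1 start site in the RefSeq promoter table (build GRCm38.p6). The 250 bases upstream of 1 start site of each of 3 receptor genes are shown because these genes separated the macrophage subsets in opposite directions: Adora2b was lower, and Adora3 and Adora1 were higher, in the CD4+ subsets. Capitals mark matches, on either strand, to the letters ACGTG or GCGTG, the cores of the hypoxia response element, or TGACG, the core of the cAMP response element.
Adora2b (chr11:62248734-62248983, + strand): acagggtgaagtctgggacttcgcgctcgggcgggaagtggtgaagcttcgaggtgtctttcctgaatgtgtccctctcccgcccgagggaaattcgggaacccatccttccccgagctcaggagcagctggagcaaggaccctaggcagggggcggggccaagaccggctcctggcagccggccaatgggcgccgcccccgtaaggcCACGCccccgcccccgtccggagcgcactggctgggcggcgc
Adora3 (chr3:105904171-105904420, + strand): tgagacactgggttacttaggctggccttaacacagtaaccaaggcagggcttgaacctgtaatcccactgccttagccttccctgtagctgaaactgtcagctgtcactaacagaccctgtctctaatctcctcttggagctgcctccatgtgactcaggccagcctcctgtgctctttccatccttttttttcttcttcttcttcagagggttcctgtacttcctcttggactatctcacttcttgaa
Adora1 (chr1:134235458-134235707, - strand): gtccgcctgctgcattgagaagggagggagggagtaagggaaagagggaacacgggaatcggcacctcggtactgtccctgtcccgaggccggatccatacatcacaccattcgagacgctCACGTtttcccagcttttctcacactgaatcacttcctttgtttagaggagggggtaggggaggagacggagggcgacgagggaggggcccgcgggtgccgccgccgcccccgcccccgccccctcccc
The Adora2b window was rich in G and C (69.6%) and held 1 match to GCGTG, on the opposite strand. In the Adora3 window, 48.8% of bases were G or C and none of the motifs was found, and the Adora1 window shown held 1 match to ACGTG. Adora1 has another window in the table (chr1:134234857-134235106, not shown), which held 3 matches to GCGTG. The whole cAMP response element TGACGTCA was in none of the 10 windows of the 7 genes, and in 1.55% of the 32817 promoter windows of this length. Its core TGACG, which the whole element contains, was in 17.7% of all windows and among the 7 genes in both Entpd1 windows and 1 Adk window. The letters ACGTG were in 16.6% and GCGTG in 28.1% of all windows, and these matches are descriptions of the letters, not of binding.

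The sort was visible in the RNA. Timd4, which encodes Tim-4, had a mean of 355 CPM in Tim-4+CD4+ macrophages and at most 1.70 CPM in the other populations, and Cd4 had 531 CPM in Tim-4-CD4+ and 816 CPM in Tim-4+CD4+ macrophages against 22.9 CPM in Tim-4-CD4- macrophages. The summed level of 7 macrophage markers was 22947 to 29467 CPM in the gut libraries and 3375 to 3698 CPM in the monocytes, and that of 6 blood monocyte markers was 11602 to 13392 CPM in monocytes. The latter also differed within the gut, at 578 to 866 CPM in Tim-4-CD4-, 83.4 to 152.5 CPM in Tim-4-CD4+, and 27.4 to 41.9 CPM in Tim-4+CD4+ libraries, of which the chemokine receptor gene Ccr2 had 660, 84.1, and 8.39 CPM on average. Total counts per library ran from 39388763 to 151510641. A limit of 3 reads was used by convention for a count of 0, and it stood for 0.0203 to 0.0776 CPM. Levels above this limit can also give 0 reads, so folds stated as at least a value hold only under it.

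The populations held different mixes of receptor transcripts. Per kb of exon, Adora2a and Adora2b together made up 94.96% to 96.9% of the receptor transcripts in monocytes, 24.9% to 45.1% in Tim-4-CD4- macrophages, 1.78% to 5.93% in Tim-4-CD4+ macrophages, and 2.24% to 2.58% in Tim-4+CD4+ macrophages. Adora3 made up 3.09% to 5.04% in monocytes, and 54.4% to 75.1%, 92.6% to 97.0%, and 94.2% to 96.9% in the 3 subsets in the same order. Ranges of these shares did not overlap between monocytes, Tim-4-CD4- macrophages, and the CD4+ subsets, but those of both CD4+ subsets overlapped. The summed receptor level was 18.9 ± 0.811 CPM per kb in monocytes (SD, n = 3) and, among macrophages, 5.05 ± 1.34 in the Tim-4-CD4- subset, 6.37 ± 1.65 in the Tim-4-CD4+ subset, and 9.19 ± 2.10 in the Tim-4+CD4+ subset (SD, n = 4 each). In bulk RNA, fewer cells that express a receptor and less RNA of it per cell cannot be told apart.

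**Figure D1:**
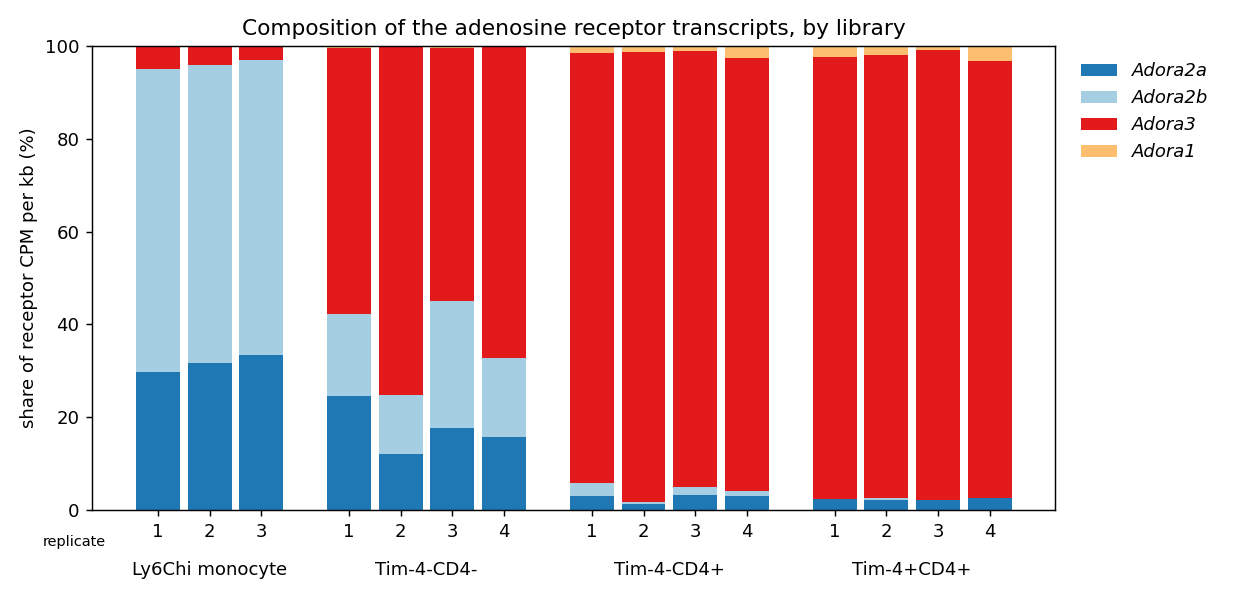
Share of each adenosine receptor gene in the summed receptor level (CPM per kb of exon, y axis in percent) in each of the 15 libraries (bars, by population and replicate number). Adora2a and Adora2b fill at least 94.96% of each monocyte bar and at most 5.93% of each bar of the CD4+ subsets, whereas Adora3 fills at least 92.6% of the latter.

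Adora2b (chr11:62248984-62266453, + strand, 2 exon blocks, GRCm38), a Gs-coupled receptor that needs high adenosine for activation, was high in monocytes, low in Tim-4-CD4- macrophages, and nearly absent from the CD4+ subsets. It was measured at 22.5, 23.5, and 21.4 CPM in the 3 monocyte libraries, at 1.31, 1.66, 2.26, and 1.45 CPM in Tim-4-CD4- libraries, and at 0.275, 0.0506, 0.294, and 0.122 CPM in Tim-4-CD4+ libraries. In Tim-4+CD4+ macrophages, 3 of the 4 libraries had no read, and replicate 2 had 7 reads (0.0602 CPM). All monocyte libraries were thus above all Tim-4-CD4- libraries, and these above every CD4+ library, while Tim-4-CD4+ replicate 2 with its 2 reads lay below Tim-4+CD4+ replicate 2. From the summed counts and depths, the level in Tim-4+CD4+ macrophages was exceeded 81.2-fold in Tim-4-CD4- macrophages (exact 95% counting interval, 38.96 to 203), 8.83-fold in Tim-4-CD4+ macrophages (4.02 to 22.9), and 1103-fold in monocytes (535 to 2745). These intervals cover counting error alone and rest on the 7 reads of 1 library. The log2 fold change was -3.15 (SE, 0.43) in Tim-4-CD4+ against Tim-4-CD4- macrophages. Against Tim-4-CD4+ macrophages it was -3.13 (SE, 0.69) in the Tim-4+CD4+ subset, and at its smallest in size -2.66 as single libraries were left out, with the call lost without Tim-4-CD4+ replicate 3. Without Tim-4+CD4+ replicate 2 that subset had no read, so no fold was measured, and the level in Tim-4-CD4+ macrophages was at least 4.37-fold higher than 3 reads per library would give. Fitted on these subsets alone, Adora2b did not pass the filter on low counts and had no value.

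Adora2a (chr10:75316877-75334784, + strand), the high-affinity Gs-coupled receptor of leukocytes, was likewise highest in monocytes, at 17.0, 19.2, and 18.7 CPM. Tim-4-CD4- libraries held 3.07, 2.60, 2.44, and 2.25 CPM, Tim-4-CD4+ libraries 0.476, 0.228, 0.857, and 0.527 CPM, and Tim-4+CD4+ libraries 0.808, 0.465, 0.772, and 0.597 CPM. The monocyte, Tim-4-CD4-, and CD4+ values formed 3 levels without overlap, and the values of both CD4+ subsets overlapped. The log2 fold change was -2.26 (SE, 0.27) in Tim-4-CD4+ and -1.98 (SE, 0.26) in Tim-4+CD4+ macrophages against Tim-4-CD4- macrophages, and 0.29 (SE, 0.27) between both CD4+ subsets. The summed blood monocyte markers were likewise highest in monocytes and next in Tim-4-CD4- macrophages (values above). Between both CD4+ subsets this sum was lower in Tim-4+CD4+ libraries without overlap. Mean Adora2b was also lower there, whereas Adora2a was not. The part of these markers in the levels of Adora2a and Adora2b was not tested. Members of that list differed in how much was left in the gut: in monocytes and in Tim-4-CD4- macrophages, Ccr2 had 2630 and 660 CPM, Plac8 1717 and 58.8 CPM, and Ly6c2 1092 and 1.72 CPM on average.

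Adora3 (chr3:105870858-105908926, + strand), a Gi-coupled receptor best known from rodent mast cells, ran the other way. Its levels were 3.51, 3.02, and 2.10 CPM in monocytes, 8.69, 19.7, 9.10, and 11.6 CPM in Tim-4-CD4- libraries, 17.7, 20.7, 30.8, and 20.3 CPM in Tim-4-CD4+ libraries, and 38.0, 25.6, 40.7, and 26.6 CPM in Tim-4+CD4+ libraries. All gut libraries were above all monocyte libraries, and all Tim-4+CD4+ libraries above all Tim-4-CD4- libraries, whereas Tim-4-CD4+ values overlapped with both neighbors. Log2 fold changes were 0.87 (SE, 0.25) for Tim-4-CD4+ against Tim-4-CD4-, 0.55 (SE, 0.25) for Tim-4+CD4+ against Tim-4-CD4+, and 1.41 (SE, 0.26) for Tim-4+CD4+ against Tim-4-CD4- macrophages. The first of these differences passed the threshold in the fit over all libraries but not when any 1 of 6 of the 8 libraries was left out, with values from 0.67 to 1.20, and not with a replicate block by title number (0.88) or description number (0.86). Tim-4-CD4- replicate 2 was the library that placed the Tim-4-CD4- values within the Tim-4-CD4+ range. This library and replicate 3 of both CD4+ subsets had the highest Adora3 of their subsets. They also had the highest summed level of dissociation response genes (values below), whose part in the Adora3 level was not tested.

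Adora3 levels are given beside those of mast cell markers. Of 8 such markers, 5 were in the table, and their summed level was 6.44 to 15.3 CPM in Tim-4-CD4-, 3.23 to 3.84 CPM in Tim-4-CD4+, and 1.53 to 3.19 CPM in Tim-4+CD4+ libraries, with 1.75 to 4.45 CPM in monocytes. Kit made up most of this sum in Tim-4-CD4- macrophages (7.74 CPM). The mast cell protease gene Cpa3 was at 0 in every library outside the Tim-4+CD4+ subset, where Adora3 was highest. Within that subset it ran from 0 to 0.172 CPM (mean, 0.0496 CPM). Hdc, also on the list, ran opposite to Adora3, with means of 2.84 CPM in monocytes and 1.40, 0.690, and 0.375 CPM in the subsets. Mcpt1 and Mcpt2 averaged at most 0.138 CPM in any population. The part of mast cells in the Adora3 level was not tested. Adora3 shared 779 bp, or 20.9% of its exon length, with Tmigd3 on the same strand, so reads there could be counted for neither gene or for the other one. Tmigd3 had at most 0.214 CPM in any library.

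Adora1 (chr1:134199223-134235431, - strand), the other Gi-coupled receptor, was, per kb of exon, the scarcest receptor transcript in monocytes and Tim-4-CD4- macrophages. No read was counted in the 3 monocyte libraries, and Tim-4-CD4- libraries had 6, 1, 5, and 0 reads (0.110, 0.0168, 0.108, and 0 CPM). Tim-4-CD4+ libraries had 0.421, 0.405, 0.511, and 0.878 CPM, and Tim-4+CD4+ libraries had 1.46, 0.852, 0.595, and 1.41 CPM. Every library of the CD4+ subsets lay above every other library, and both CD4+ subsets overlapped. Against the level that 3 reads per monocyte library would give (0.0354 CPM), the level was at least 15.6-fold higher in Tim-4-CD4+ and at least 30.5-fold higher in Tim-4+CD4+ macrophages, and no fold is given for Tim-4-CD4- macrophages, which were themselves at that limit. Within the gut, the log2 fold change against Tim-4-CD4- macrophages, which rests on their 12 reads, was 3.20 (SE, 0.66) in Tim-4-CD4+ and 4.14 (SE, 0.66) in Tim-4+CD4+ macrophages.

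A pair of features accompanied Adora1. Exons of Adora1 shared 1162 bp (20.1% of its exon length) with Mybph on the opposite strand, and Mybph had a mean of 0 CPM in monocytes, 0.292 CPM in Tim-4-CD4-, 0.336 CPM in Tim-4-CD4+, and 0.531 CPM in Tim-4+CD4+ macrophages. The libraries were strand specific, but whether strand was used in counting is not given in the sources used here, so the gene of origin of reads in the shared stretch is not known. Markers of enteric neurons and glia, cells in which Adora1 is known to be expressed, summed to 2.09 to 2.65 CPM in Tim-4-CD4-, 1.23 to 2.65 CPM in Tim-4-CD4+, 6.07 to 7.98 CPM in Tim-4+CD4+, and 0.0425 to 0.149 CPM in monocyte libraries. Of the 7 markers, Elavl4 carried the difference (3.88 CPM on average in Tim-4+CD4+ against 0.167 CPM in Tim-4-CD4- and 0.204 CPM in Tim-4-CD4+ macrophages), and Sox10, Gfap, S100b, and Elavl4 were at 0 in all monocyte libraries. Their part in the Adora1 level was not tested.

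**Figure D2:**
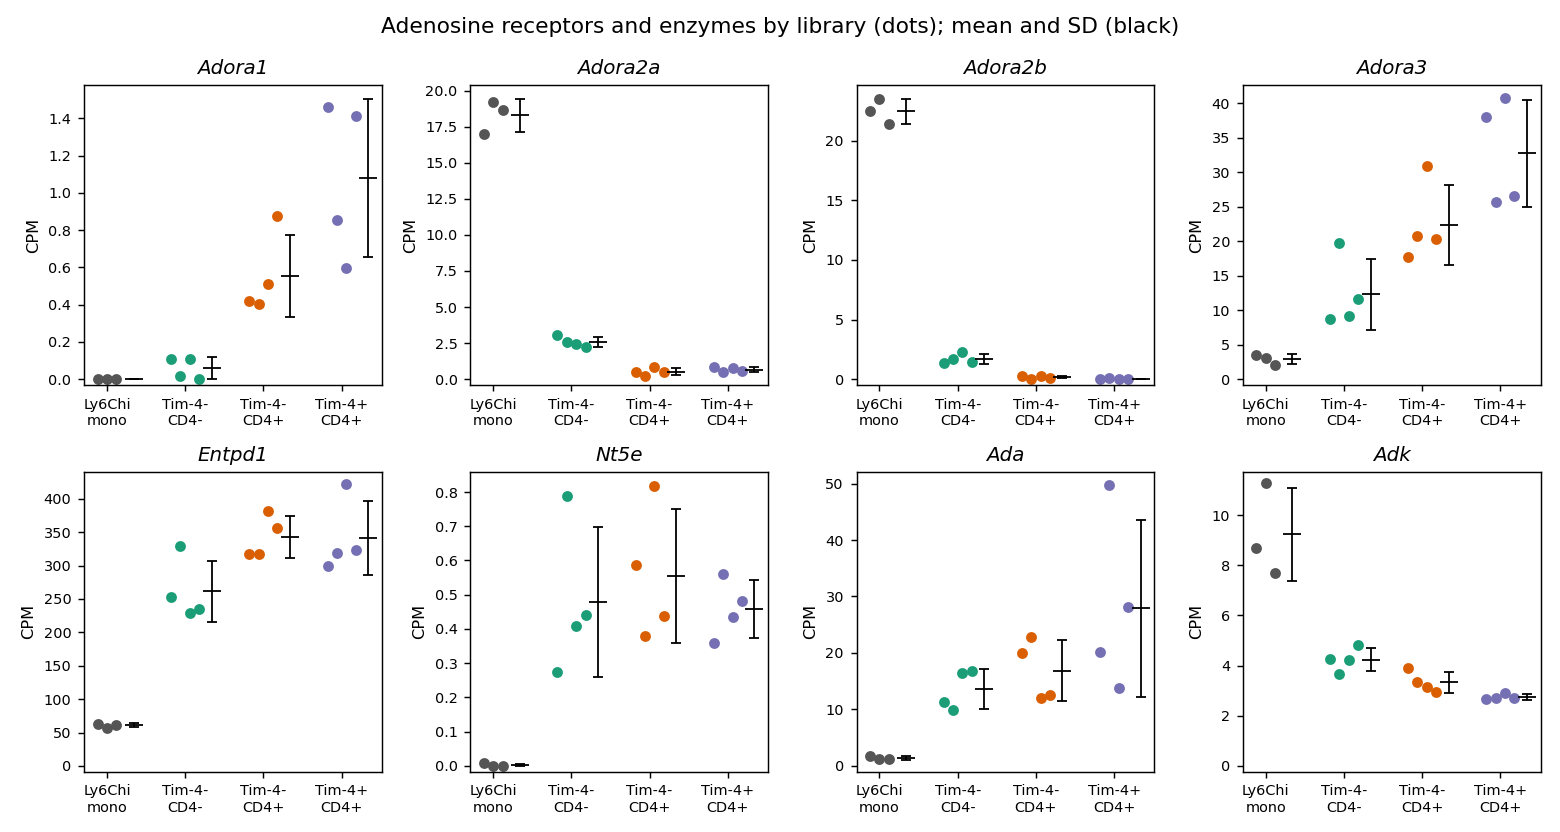
Level (CPM, linear y axes that differ between panels) of each of the 8 genes in every library of the 4 populations (dots) with the population mean and SD (black, n = 3 for monocytes and n = 4 for each subset). Adora2a, Adora2b, and Adk are highest in monocytes and the other 5 genes are lowest there, and only in Adora2b do Tim-4+CD4+ macrophages include 3 libraries without a read.

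The ectonucleotidases were present in very unequal amounts. Entpd1 (chr19:40612366-40741602, + strand), which encodes the ATP- and ADP-cleaving CD39, had 63.4, 57.3, and 62.0 CPM in monocytes, 253, 329, 228, and 235 CPM in Tim-4-CD4-, 317, 317, 381, and 356 CPM in Tim-4-CD4+, and 299, 320, 422, and 324 CPM in Tim-4+CD4+ libraries. All 12 gut libraries were above the monocytes, with log2 fold changes of 2.10 (SE, 0.15), 2.49 (SE, 0.15), and 2.49 (SE, 0.15) in the 3 subsets. Per kb of exon, Entpd1 was the most abundant of the 8 genes in each macrophage subset and above 94.2% to 95.7% of all genes tested. Within the gut, its values overlapped between subsets, with log2 fold changes of 0.39 (SE, 0.13) in Tim-4-CD4+ and 0.38 (SE, 0.13) in Tim-4+CD4+ against Tim-4-CD4- macrophages and -0.01 (SE, 0.13) between both CD4+ subsets. The difference for Tim-4+CD4+ macrophages was past the threshold, but not after leaving out any 1 of 5 of the 8 libraries (0.28 to 0.52), in a fit of these subsets alone (0.40), or with a block by title number (0.38). The difference of like size in Tim-4-CD4+ macrophages missed the threshold but passed it under 6 of the 9 other settings (0.40 to 0.41). Entpd1 was highest in Tim-4-CD4- replicate 2 and in replicate 3 of both CD4+ subsets. These libraries also had the highest dissociation sum of their subsets, and its part in the Entpd1 level was not tested.

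Nt5e (chr9:88327197-88372092, + strand), whose product CD73 forms adenosine from AMP, was close to the limit of detection by comparison. A single read was counted over the 3 monocyte libraries. Values were 0.274, 0.787, 0.410, and 0.440 CPM in Tim-4-CD4-, 0.586, 0.379, 0.818, and 0.439 CPM in Tim-4-CD4+, and 0.3601, 0.559, 0.434, and 0.481 CPM in Tim-4+CD4+ libraries, and the 3 subsets overlapped throughout, with log2 fold changes between them of at most 0.28 in size (SE, 0.41 to 0.42). Scaled for depth, the summed counts of the subsets, in the same order, exceeded the single monocyte read 146-fold (exact 95% interval, 25.6 to 5836), 164-fold (29.0 to 6495), and 138-fold (24.4 to 5477), and these intervals, too, cover counting error alone. Per kb of exon, Entpd1 exceeded Nt5e in every gut library, by 644- to 1500-fold.

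T cell markers, from cells in which CD73 is common, were as a sum also lower in blood than in gut. Their 9 genes summed to 1.34 to 3.35 CPM in monocyte, 4.45 to 9.53 CPM in Tim-4-CD4-, 10.5 to 16.4 CPM in Tim-4-CD4+, and 8.62 to 12.3 CPM in Tim-4+CD4+ libraries. Cd3e averaged 0.787, 2.44, and 1.45 CPM in the subsets and 0.0484 CPM in monocytes. Cd2 alone went the other way, with 0.796, 0.735, and 0.595 CPM in the subsets and 1.47 CPM in monocytes. B and plasma cell markers summed to 241 to 430 CPM in gut and 8.48 to 10.6 CPM in monocyte libraries. The part of other cells in the Nt5e level was not tested.

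The enzymes that clear adenosine moved in opposite directions between blood and gut. Ada (chr2:163726584-163750239, - strand), adenosine deaminase, had 1.79, 1.17, and 1.19 CPM in monocytes, 11.3, 9.92, 16.4, and 16.8 CPM in Tim-4-CD4-, 19.9, 22.9, 11.97, and 12.6 CPM in Tim-4-CD4+, and 20.2, 49.7, 13.7, and 28.1 CPM in Tim-4+CD4+ libraries. The gut libraries were all above the monocytes, and the subsets overlapped. Tim-4+CD4+ replicate 2 was the highest of all 15 libraries. The log2 fold change of Tim-4+CD4+ against Tim-4-CD4- macrophages was 1.04 (SE, 0.33), or 0.62 without that library, and it missed the threshold after leaving out any 1 of 4 of the 8 libraries, in a fit of these subsets alone, or with a block by title number (0.92). Epithelial markers summed to 22.5 CPM in that library, the lowest of the 4 Tim-4+CD4+ libraries (22.5 to 33.6 CPM), and to 1.88 to 2.72 CPM in monocytes. Dendritic cell markers were highest there among the Tim-4+CD4+ libraries, summing to 157, 215, 136, and 173 CPM in replicates 1 to 4, the same rank order as Ada. Their order differed from that of Ada in Tim-4-CD4- libraries (161, 138, 231, and 161 CPM) and in Tim-4-CD4+ libraries (202, 182, 144, and 185 CPM). Most of the Tim-4+CD4+ sums came from Kmo (112, 179, 107, and 139 CPM), which averaged 113 CPM in Tim-4-CD4-, 142 CPM in Tim-4-CD4+, and 134 CPM in Tim-4+CD4+ macrophages. The mast cell sum was also highest in Tim-4+CD4+ replicate 2 among the libraries of that subset (3.19 CPM). The part of other cells in the Ada level was not tested.

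Adk (chr14:21052574-21448569, + strand), adenosine kinase, had 8.69, 11.3, and 7.69 CPM in monocytes, 4.25, 3.67, 4.23, and 4.81 CPM in Tim-4-CD4-, 3.92, 3.34, 3.15, and 2.95 CPM in Tim-4-CD4+, and 2.67, 2.71, 2.89, and 2.70 CPM in Tim-4+CD4+ libraries. Monocytes were above all gut libraries. Tim-4+CD4+ libraries were below all others, by a narrow gap to the lowest Tim-4-CD4+ library (2.89 against 2.95 CPM). The log2 fold change was -0.63 (SE, 0.15) for Tim-4+CD4+ and -0.35 (SE, 0.15) for Tim-4-CD4+ against Tim-4-CD4- macrophages, and values overlapped in the latter comparison. Between both CD4+ subsets it was -0.28 (SE, 0.15) and missed the threshold. The ratio of Ada to Adk per kb of exon was 0.440 to 0.875 in monocytes, 11.3 to 16.5 in Tim-4-CD4-, 16.2 to 29.2 in Tim-4-CD4+, and 20.2 to 78.02 in Tim-4+CD4+ libraries. Monocytes were thus the only population with more Adk than Ada per kb.

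Calls from edgeR's quasi-likelihood test over all genes (adjusted p under 0.05) are set beside the share of all 15802 genes called, and since the members were selected on these same values, nothing is read from their counts. In Tim-4-CD4+ against Tim-4-CD4- macrophages, 2 of the 8 were called higher (Adora1 and Adora3) and 2 lower (Adora2a and Adora2b), where 4.52% and 5.53% of all genes were called higher and lower. In Tim-4+CD4+ against Tim-4-CD4+ macrophages, 1 was called lower (Adora2b) and 0 higher, beside 1.34% and 2.07% of all genes. In Tim-4+CD4+ against Tim-4-CD4- macrophages, 4 were called higher (Adora1, Adora3, Entpd1, and Ada; all genes, 11.3%) and 3 lower (Adora2a, Adora2b, and Adk; all genes, 11.9%), with a median log2 fold change over the 8 of 0.16 against 0.00 over all genes tested. Against monocytes, 5 were called higher and 3 (Adora2a, Adora2b, and Adk) lower in each subset, where 37.3% and 28.1%, 39.1% and 30.7%, and 39.5% and 31.3% of all genes were called higher and lower in the subsets, in the order used above. These comparisons share their libraries with each other.

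**Figure D3:**
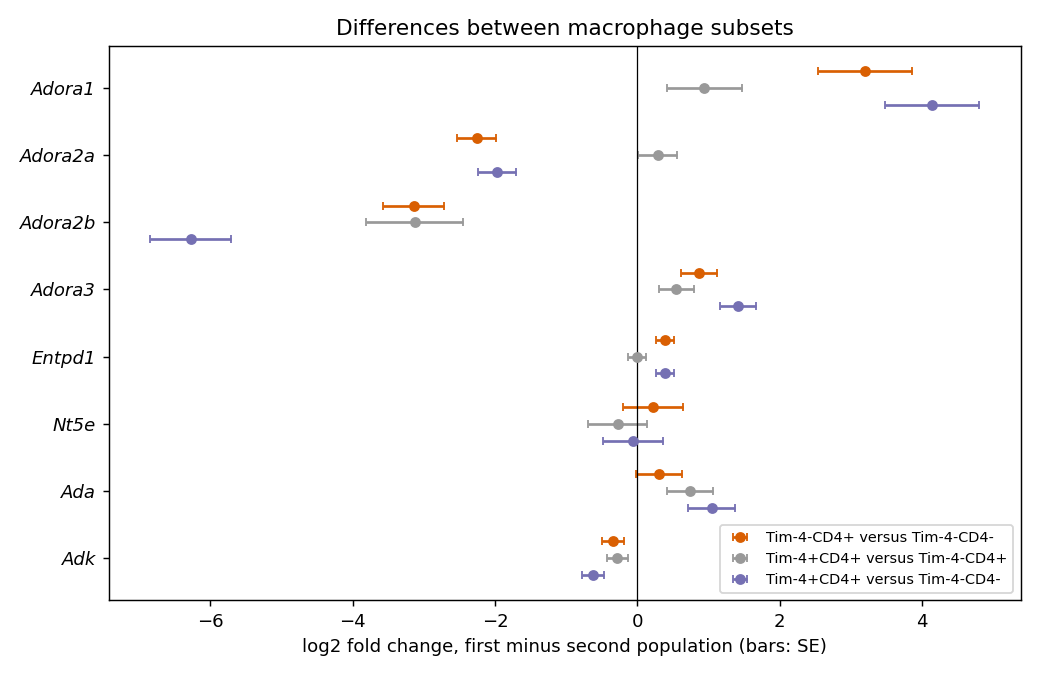
Log2 fold change (x axis, points; bars show the SE from edgeR) of each of the 8 genes (y axis) in the 3 comparisons between macrophage subsets, with 4 libraries in each subset. Adora2b lies below 0 in all 3 comparisons, at -3.15, -3.13, and -6.28, while Adora1 and Adora3 lie above 0 and Nt5e stays within 0.28 of 0.

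The other genes of the pathway came from 7 fixed lists of 112 genes, of which 104 were in the table and 94 were tested. Relative to the Tim-4-CD4- subset, in Tim-4+CD4+ macrophages 21 rose and 17 fell by edgeR's quasi-likelihood test (22.3% and 18.1% of the 94, beside 11.3% and 11.9% of all genes), with a median log2 fold change of 0.02 against 0.00 over all genes. In Tim-4-CD4+ against Tim-4-CD4- macrophages, 13 were higher and 9 lower (13.8% and 9.57%, beside 4.52% and 5.53%), and between both CD4+ subsets, 7 were higher and 2 lower in Tim-4+CD4+ macrophages (7.45% and 2.13%, beside 2.07% and 1.34%). The lists were written with earlier results of these data known.

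Of 14 other ectonucleotidases tested, 5 rose and 1 fell in Tim-4+CD4+ against Tim-4-CD4- macrophages (all genes, 11.3% higher and 11.9% lower). Their median log2 fold change was 0.43. Acpp, an acid phosphatase that can also turn AMP into adenosine outside the cell, rose from 7.01 ± 0.730 to 21.4 ± 2.26 CPM (SD, n = 4 each; log2 fold change, 1.61; SE, 0.13; adjusted p = 1.25e-07 by edgeR), with 13.7 ± 0.898 CPM in Tim-4-CD4+ macrophages. Enpp1, which cuts ATP to AMP and pyrophosphate, rose from 10.4 ± 0.851 to 26.1 ± 1.90 CPM (1.33; SE, 0.12; adjusted p = 7.28e-07 by edgeR). Enpp2, the lysophospholipase autotaxin, had the largest rise of the list (2.35; SE, 0.20; adjusted p = 2.31e-07 by edgeR), to 7.33 ± 1.15 CPM. All 3 were also higher in Tim-4+CD4+ than in Tim-4-CD4+ macrophages by edgeR's test: Acpp by 0.64 (adjusted p = 0.00567), Enpp1 by 0.53 (adjusted p = 0.0193), and Enpp2 by 1.61 (adjusted p = 4.93e-05) on the log2 scale. Bst1, an enzyme of NAD breakdown, fell by 1.82 on the log2 scale (SE, 0.20; adjusted p = 5.48e-06 by edgeR), from 8.66 to 2.46 CPM. Mesenchymal markers, from cells in which Enpp1 and Enpp2 are also expressed, summed to 115 to 164 CPM in Tim-4+CD4+, 82.7 to 107 CPM in Tim-4-CD4+, and 70.9 to 105 CPM in Tim-4-CD4- libraries, without overlap between the first and the others, and their part in these levels was not tested.

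Against monocytes, 11, 10, and 10 of these 14 ectonucleotidases were higher in the 3 subsets, in the same order, and 2 were lower in each (all genes, 37.3% to 39.5% higher and 28.1% to 31.3% lower). Cd38, another NAD-consuming ectoenzyme, had 2.31 ± 2.09 CPM in monocytes (SD, n = 3) and 166 ± 16.4, 218 ± 18.8, and 238 ± 21.5 CPM in the subsets (n = 4 each), and Enpp5 had 0.132 CPM in monocytes and 30.1, 57.1, and 54.9 CPM in the subsets. Bst1 was lower in each subset than in monocytes, which had 97.0 ± 39.2 CPM.

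Few genes of adenosine and AMP metabolism were called in Tim-4+CD4+ against Tim-4-CD4- macrophages (5% higher and 5% lower). Over all genes, these shares were 11.3% and 11.9%. The transporter and ATP release lists had only 4 tested genes each, of which 2 and 1 were called. Of 4 nucleoside transporters tested, Slc28a2, the sodium-driven purine nucleoside carrier, rose from 58.0 ± 2.62 to 127 ± 8.60 CPM in Tim-4+CD4+ against Tim-4-CD4- macrophages (1.13; SE, 0.14; adjusted p = 1.44e-05 by edgeR), and the lysosomal transporter Slc29a3 fell by 0.36 (SE, 0.12; adjusted p = 0.0482 by edgeR). The equilibrative carrier Slc29a1 was higher in each subset than in monocytes, at 185 ± 68.8, 227 ± 87.5, and 246 ± 77.2 CPM (SD, n = 4 each) against 32.6 ± 2.91 CPM (SD, n = 3). Among 4 genes of ATP release, Panx1, a channel through which ATP leaves cells, rose from 36.1 to 60.4 CPM (0.74; SE, 0.13; adjusted p = 0.00043 by edgeR). Of 20 genes of adenosine and AMP metabolism, 1 rose and 1 fell: Xdh, which makes urate, was higher by 0.64 (SE, 0.12; adjusted p = 0.00109 by edgeR), and Ahcy, which releases adenosine from S-adenosylhomocysteine, fell by 0.51 (SE, 0.12; adjusted p = 0.00523 by edgeR). Ampd3, an AMP deaminase, had 169 ± 8.91 CPM in monocytes and 33.4, 28.8, and 29.7 CPM in the subsets.

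Downstream of the receptors, both directions occurred. Among 23 G protein, adenylyl cyclase, and protein kinase A genes tested, 5 rose and 7 fell in Tim-4+CD4+ against Tim-4-CD4- macrophages (all genes, 11.3% higher and 11.9% lower). Their median log2 fold change was -0.21. Adcy3, an adenylyl cyclase, rose from 0.960 ± 0.0952 to 6.77 ± 1.13 CPM (2.82; SE, 0.34; adjusted p = 1.13e-05 by edgeR), and Adcy4 rose from 11.9 ± 1.95 to 60.4 ± 13.5 CPM (2.34; SE, 0.29; adjusted p = 1.73e-05 by edgeR). Rapgef3, a cAMP-activated exchange factor, was 2.02 higher (SE, 0.46; adjusted p = 0.0038 by edgeR). The G protein genes Gnas, which encodes the Gs subunit used by the Adora2a and Adora2b receptors, and Gnai2, which encodes a Gi subunit, fell by 0.44 (SE, 0.10; adjusted p = 0.00268 by edgeR) and 0.41 (SE, 0.08; adjusted p = 0.00147 by edgeR). Prkar2b, a regulatory subunit of protein kinase A, fell by 0.64 (SE, 0.15; adjusted p = 0.00533 by edgeR). Endothelial markers, from a cell type that also uses Adcy4 and Rapgef3, summed to 20.8 to 62.8 CPM in Tim-4-CD4-, 21.8 to 42.1 CPM in Tim-4-CD4+, and 33.8 to 63.6 CPM in Tim-4+CD4+ libraries, and their part in these levels was not tested.

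Of 14 cAMP phosphodiesterases tested, 5 rose and 0 fell in Tim-4+CD4+ against Tim-4-CD4- macrophages by edgeR's quasi-likelihood test (all genes, 11.3% higher and 11.9% lower). Pde8b rose from 5.42 ± 1.22 to 19.3 ± 3.91 CPM (1.84; SE, 0.19; adjusted p = 1.78e-06 by edgeR), Pde1b from 62.9 ± 8.67 to 113 ± 25.6 CPM (0.84; SE, 0.15; adjusted p = 0.00057 by edgeR), and Pde7a from 31.1 ± 2.49 to 45.3 ± 2.78 CPM (0.54; SE, 0.10; adjusted p = 0.000648 by edgeR). Pde4b, a cAMP phosphodiesterase of inflammatory cells, had 41.1 ± 5.52 CPM in monocytes and 335, 303, and 304 CPM in the subsets.

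cAMP-responsive genes, a list of 15, held 3 that rose and 7 that fell in Tim-4+CD4+ against Tim-4-CD4- macrophages (all genes, 11.3% higher and 11.9% lower). Vegfa, which encodes an angiogenic factor, fell by 2.66 (SE, 0.17; adjusted p = 7.91e-09 by edgeR), from 42.6 ± 6.85 to 6.71 ± 1.44 CPM, with 14.3 ± 0.959 CPM in Tim-4-CD4+ macrophages. The orphan nuclear receptor genes Nr4a2 and Nr4a3 fell by 1.83 (SE, 0.10; adjusted p = 2.42e-09 by edgeR) and 1.00 (SE, 0.26; adjusted p = 0.0102 by edgeR). Crem, a cAMP response modulator, rose by 0.58 (SE, 0.11; adjusted p = 0.000667 by edgeR), Il10, the anti-inflammatory cytokine, by 0.53 (SE, 0.15; adjusted p = 0.0141 by edgeR), and Rgs2, a brake on G protein signaling, by 0.44 (SE, 0.08; adjusted p = 0.000924 by edgeR). The list thus split, with members on both sides.

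Against monocytes, 14, 15, and 14 of these 15 genes were higher in the 3 subsets and 0 were lower (all genes, 37.3% to 39.5% higher and 28.1% to 31.3% lower). Among those higher were Ptgs2 (0.445 CPM in monocytes and 1248, 1117, and 825 CPM in the subsets) and Il10 (0.0534 CPM against 86.3, 110, and 124 CPM). A list of 10 immediate early and heat shock genes that respond to tissue dissociation moved with them, at 699 to 915 CPM in monocyte and 24216 to 35265 CPM in gut libraries, and its part in these differences was not tested. Within the gut the summed list was at 28598 to 34377 CPM in Tim-4-CD4-, 24876 to 35265 CPM in Tim-4-CD4+, and 24216 to 28852 CPM in Tim-4+CD4+ libraries, and the last range overlapped the first through 1 library. Single genes of the list lay lower in Tim-4+CD4+ than in Tim-4-CD4- libraries without overlap: Egr1 at 1894 to 2951 against 3499 to 4213 CPM, Ier2 at 456 to 632 against 778 to 1002 CPM, Atf3 at 1402 to 1640 against 1917 to 2439 CPM, and Dusp1 at 1911 to 2305 against 2375 to 2909 CPM, whereas Fos, Fosb, Jun, Junb, Hspa1a, and Hspa1b overlapped. The part of this response in the fall of Nr4a2, Nr4a3, and Vegfa was not tested.

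**Figure D4:**
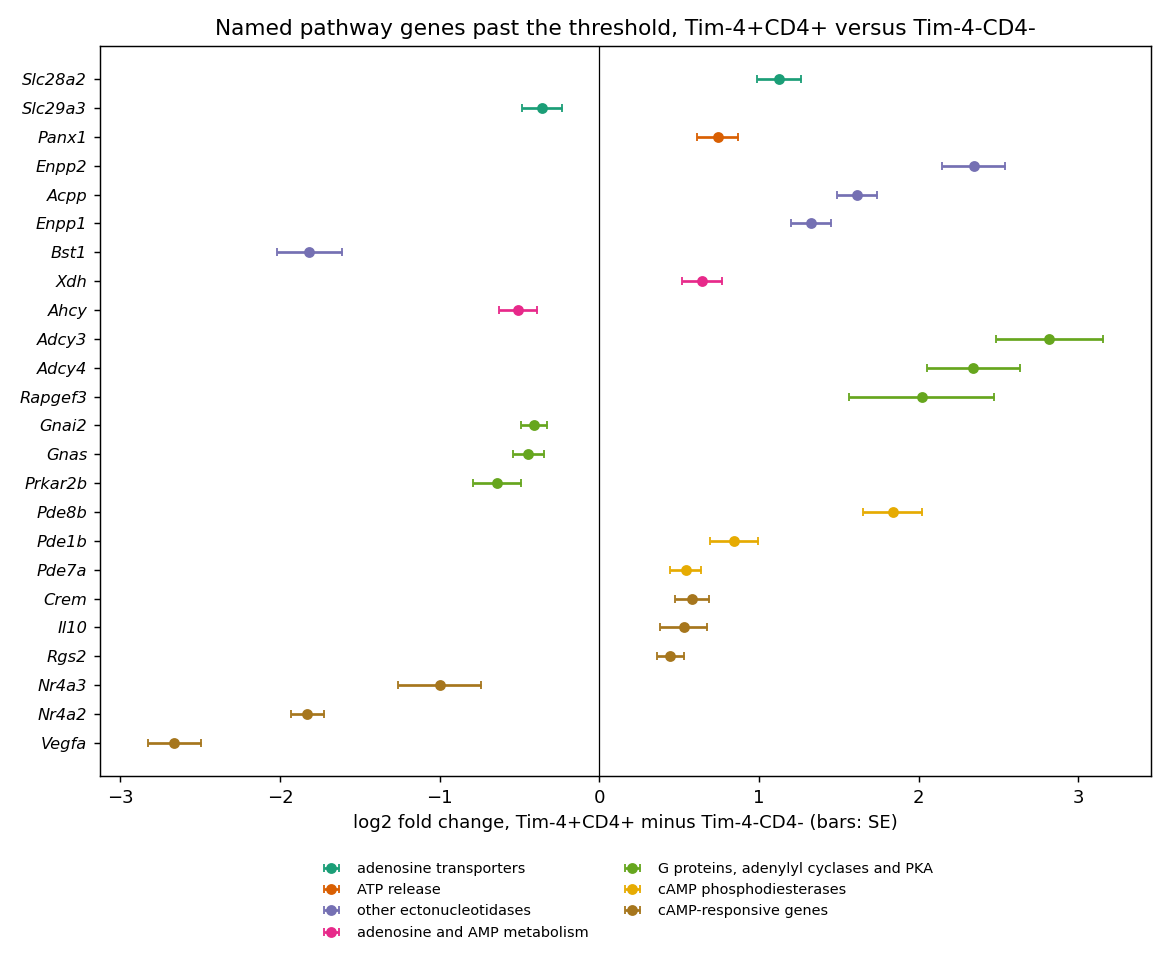
Log2 fold change (x axis, points; bars show the SE from edgeR) of Tim-4+CD4+ against Tim-4-CD4- macrophages (n = 4 libraries each) of the named pathway genes (y axis), colored by list; each passed an adjusted p of 0.05. Phosphodiesterases, Panx1, and the ectonucleotidases other than Bst1 lie above 0, and Vegfa at -2.66 and Adcy3 at 2.82 mark both ends.

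Genes with patterns most like each member were sought by Pearson correlation of log2 CPM, as a description over libraries that share populations. Over the 12 macrophage libraries, Adora2b was most like Ltb4r1, the leukotriene B4 receptor (r = 0.985), followed by Sema4a (0.977) and Traf1 (0.977), and over all 15 libraries it was most like Sema4a (0.990). Ltb4r1 had 67.6, 7.81, 2.69, and 0.861 CPM in monocytes and in the 3 subsets, the same order as Adora2b. Traf1, in contrast, was lower in monocytes (4.06 CPM) than in Tim-4-CD4- macrophages (20.2 CPM), so it was like Adora2b only within the gut. Adora2a was closest to Ccl6 over all libraries (0.981) and to Adssl1 within the gut (0.959). Adora3 was closest to Tbc1d10a over all libraries (0.984) and to Mtif3 within the gut (0.982), although Mtif3 was higher in monocytes (12.4 CPM) than in any subset (7.61, 9.88, and 10.9 CPM). Adora1 was closest to Rab11fip4 over both sets (0.962 and 0.961).

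For the enzymes, Entpd1 was most like Slc37a2 over all libraries (0.992) and Zbtb43 within the gut (0.945). Ada was most like Gcfc2 over all libraries (0.987) and Stag3 within the gut (0.909), the lowest of these best matches, and Adk like Spn (0.981) and Eef1e1 (0.962). Nt5e, which stayed under 1 CPM, was left out. Among the 8 genes themselves, within the gut libraries, Adora2b and Adk had a correlation of 0.876 and Adora3 and Entpd1 one of 0.831, while Adora2b and Adora3 had -0.833 and Adora1 and Adk -0.871, across 12 libraries that differ in population and depth.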

How the data were processed

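RNA was sequenced (poly(A)-selected, strand-specific, paired-end) in 15 libraries, grouped by their deposited titles. Per the labels and the study's methods, trimming was by Trimmomatic, alignment to GRCm38.p4 by STAR, and gene counting by HTSeq on the GENCODE vM11 annotation, with no strand setting given in the sources used here. The authors deposited raw counts, used here, and 15 columns of those counts divided by a size factor per library, not used here. Symbols were matched for 19421 identifiers, and exon lengths and coordinates were taken from GENCODE vM21 (GRCm38).

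Low counts were removed with filterByExpr, libraries were scaled with TMM, and 1 quasi-likelihood fit in edgeR 4.0.16 (R 4.3.3) gave 6 comparisons, Benjamini-Hochberg adjusted over 15802 genes. The p-values measure the spread between pooled libraries only. The fit was tested on simulated data. Log2 CPM used a prior count of 2. Pathway genes were named by rule: per comparison and list, at most 3 called genes of largest change in each direction with a mean of at least 1 CPM. The 8 members and all lists were chosen with earlier results of these data known. Alternatives were other normalizations and filters, DESeq2 1.42.0, only the populations compared, a replicate block, and leaving out each library.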

Additional observations from a re-analysis of the deposited data

Results flagged for a closer look

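Adora2b in Tim-4+CD4+ replicate 2, at 0.0602 CPM (7 reads), stood apart from the other 3 libraries of the subset, which had no read. The gap to the nearest library was the whole range of the group. Over 33 groups of values examined in this way (8 genes and 3 derived measures in 3 subsets of 4 libraries), this was 1 value. Chance alone marks about 1 in 20 groups of continuous values. That rate does not apply here, since beside 3 libraries at 0 any read in the remaining library gives this gap. Without this library all Tim-4+CD4+ libraries were at 0, and against the level that 3 reads per library would give (0.0424 CPM) Adora2b was at least 39.4-fold higher in Tim-4-CD4- macrophages, at least 4.37-fold higher in Tim-4-CD4+ macrophages, and at least 529-fold higher in monocytes.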

How the results depend on the processing

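No called difference of a member changed sign under any alternative. The count of members called in Tim-4+CD4+ against Tim-4-CD4+ macrophages was 1 (Adora2b) and became 0 when only the 2 populations compared were fitted, since Adora2b did not pass the filter there, and was 0 to 1 when a library was left out, with 0 without Tim-4-CD4+ replicate 3. Of the counts of member and pathway calls, 107 of 108 under other settings and 89 of 90 with a library left out stayed within 1.5 times. Of the members' log2 fold changes, 416 of 418 and 350 of 360 kept their value within the spread between libraries; the exceptions were mostly of Adora2b without Tim-4+CD4+ replicate 2 and of Nt5e with a monocyte library left out. Members called ranged from 3 to 5 in Tim-4-CD4+ and from 5 to 7 in Tim-4+CD4+ against Tim-4-CD4- macrophages as libraries were left out. Over all genes, DESeq2 called 917 between both CD4+ subsets where edgeR called 539, and leaving out Tim-4-CD4+ replicate 4 gave 1033 in place of 1589 in Tim-4-CD4+ against Tim-4-CD4- macrophages. Adora1 and Nt5e fell below a mean of 1 CPM and had no value under that filter.

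Against monocytes, the median log2 fold change over all genes was 0.08 to 0.11, and -0.05 to 0.00 with total counts alone or 0.15 to 0.21 with upper-quartile scaling, where the smallest member difference was -1.12, for Adk. Same-numbered macrophage libraries had correlated deviations of -0.12 to 0.13 by title number and -0.09 to 0.16 by description number. Libraries of different numbers had -0.14 to 0.24 under either numbering. These ranges overlapped, so the numbers alone do not show which libraries came from a shared sort. The study describes 4 independent sorts of macrophages, with 3 mice pooled, so libraries of different subsets may share a sort. The main fit had no block for this. With a replicate block by title number, members called numbered 3, 1, and 5 in the comparisons of subsets, where the fit without it called 4, 1, and 7; the calls lost were Adora3 in the first and Entpd1 and Ada in the last. With the block by description number they numbered 3, 1, and 7. Pathway genes called were 19, 9, and 35, or 22, 9, and 38. Depth limits Adora1, Adora2b, and Nt5e, which had fewer than 10 reads in at least 1 group's libraries.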
